A study of Homo sapiens with 2 samples.

Results

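Of 56 genes of the DNA damage response and DNA repair, 15 (26.8%) had a region of differing SMARCA4 binding within 1 kb of a transcription starting site (TSS), and at all 15 the binding was higher in parental than in EZH2 inhibitor-resistant (EIR) cells. Over all protein-coding genes the share with such a region was 24.6%. None of the 56 had an EIR-higher region there, against 1.96% of protein-coding genes. The genes were picked for their function and cover damage signalling and the checkpoint, the MRN complex, homologous recombination, the Fanconi anemia pathway, and mismatch, end-joining, single-strand break, base excision and nucleotide excision repair. For each gene, regions of differing binding were collected within 1 kb, by their nearest edge, of any TSS of the gene, and then elsewhere in the gene body. These genes held 38 of the 12896 regions that differed between the libraries, 18 near a TSS and 20 in the gene body.

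SMARCA4 (also known as BRG1), a catalytic subunit of the SWI/SNF chromatin remodeling complex, was profiled by ChIP-seq against a FLAG epitope inserted at the endogenous gene. Both libraries came from TOV21G, an *ARID1A*-mutated ovarian clear cell carcinoma cell line. The first was made from the parental cells, and the second from EIR clone 3, which had been selected in stepwise rising concentrations of GSK126, an EZH2 inhibitor, from 5 to 20 μM. Whether GSK126 was in the medium at the time of ChIP is not given in the sources used here, so the resistant state and exposure to the drug cannot be told apart. Each condition is 1 library, and the resistant state is represented by 1 clone, so differences between the conditions and between these cell populations cannot be told apart. Parental-higher and EIR-higher regions numbered 10792 and 2104. Lower binding at these genes and a lower yield of the whole EIR pulldown cannot be told apart either. The lists hold only regions that differed, so a gene without a region may have been bound alike in both libraries or not bound.

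Values are sequencing tags per region, from about 25600000 parental and 35000000 EIR tags in all. EIR tags were scaled to the parental total, so that 1 EIR tag counts as 0.733. A fold is parental tags over scaled EIR tags. Its exact Clopper-Pearson 95% interval covers counting error only, and the spread between replicates is unknown. The regions had been selected for a difference between these same libraries, so no test of the conditions is given.

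DNA damage is met by layers of proteins. Kinases and ubiquitin ligases detect breaks and stalled replication forks and halt the cell cycle, and separate machineries then mend each kind of lesion. Homologous recombination copies the intact sister chromatid, end joining ligates broken ends directly, the Fanconi anemia pathway unhooks interstrand crosslinks, and the excision and mismatch pathways replace damaged or mispaired bases. SWI/SNF complexes move nucleosomes at promoters and enhancers, and repair genes mostly have CpG-rich promoters that are active in dividing cells.

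The region covered the canonical TSS at 6 of the 15 genes, *XRCC2*, *XRCC3*, *FANCE*, *LIG3*, *PARP1* and *PARP2*. Tags were counted over whole regions, so the bases bound within a region are not resolved. The stretch of each region just upstream of that TSS is shown as a part of it. It is given 5′ to 3′ in the direction of transcription, from the GRCh37 (hg19) genome, within 200 bases of the TSS and outside exons of protein-coding transcripts. Capitals mark matches, on either strand, to the letters of the CCAAT box bound by NF-Y (CCAAT), the GC box of SP and KLF factors (GGGCGG) and the NRF1 motif (TGCGCATGC).
XRCC2 promoter, chr7:152373279-152373426, minus strand: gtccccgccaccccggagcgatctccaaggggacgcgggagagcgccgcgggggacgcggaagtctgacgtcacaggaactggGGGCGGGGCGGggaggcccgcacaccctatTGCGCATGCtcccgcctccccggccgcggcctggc
XRCC3 promoter, chr14:104181842-104181988, minus strand: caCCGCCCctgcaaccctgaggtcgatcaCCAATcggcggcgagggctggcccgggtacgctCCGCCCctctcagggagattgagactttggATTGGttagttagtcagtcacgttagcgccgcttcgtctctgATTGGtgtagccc
FANCE promoter, chr6:35419994-35420114, plus strand: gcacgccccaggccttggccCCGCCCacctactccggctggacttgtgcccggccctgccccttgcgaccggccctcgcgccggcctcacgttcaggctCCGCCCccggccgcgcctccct
LIG3 promoter, chr17:33307399-33307530, plus strand: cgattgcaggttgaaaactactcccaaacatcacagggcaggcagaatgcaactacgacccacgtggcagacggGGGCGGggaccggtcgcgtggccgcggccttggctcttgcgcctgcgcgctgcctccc
PARP1 promoter, chr1:226595802-226595870, minus strand: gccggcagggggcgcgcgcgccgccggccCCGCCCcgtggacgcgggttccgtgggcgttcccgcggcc
PARP2 promoter, chr14:20811668-20811773, plus strand: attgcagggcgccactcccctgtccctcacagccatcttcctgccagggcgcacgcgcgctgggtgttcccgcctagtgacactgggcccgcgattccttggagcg

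GC boxes were in the stretches of 5 of these 6 genes. They overlapped each other in *XRCC2*, which also had the NRF1 letters, and *XRCC3* had 3 CCAAT boxes. The printed stretch of *PARP2* matched none of the motifs searched, but its whole region of 500 bp held 1 CCAAT box and 1 GC box. Over the 300 bases from 250 before to 50 after the canonical TSS, 40 of the 56 genes (71.4%) held a GC box, against 61.4% of 19881 protein-coding promoters. The share was 73.3% for the 15 genes with a region and 70.7% for the 41 without. CCAAT boxes were in 23 of 56 (41.1%, against 36.0%). The ETS letters CCGGAAG were in 16 of 56 (28.6%, against 14.1%), 2 with and 14 without a region. The NRF1 letters were in 3 of 56 (5.36%, against 2.04%), *WRN* and *XRCC2* with a region and 1 gene without. The E2F letters TTTCGCGC were in 3 of 56 (5.36%, against 0.719%), none of them with a region. The CHR element TTTGAA was in 7 of 56 (12.5%, against 11.4%), and AP-1 (TGANTCA) in 0 of 56 (against 5.4%). Motif matches are a description of these windows. Median GC content was 65.3% with and 62.0% without a region, against 63.7% over all coding promoters.

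Regions near the TSS were about as common at these genes as at protein-coding genes in general. Beside the 24.6% of 20176 protein-coding genes, 10.7% of all 64486 annotated genes had a region of either direction within 1 kb of a TSS. For parental-higher regions the count was 15 of 56 genes, against 23.2% of protein-coding genes. The share near the TSS was thus close to that of protein-coding genes, and the count of 15 says little about this set of genes in particular. Had the EIR library been scaled 1.5 times higher than by total tags, *NBN*, *XRCC3* and *WRN* alone would have kept a region. Of all 10792 parental-higher regions, 2718 would have been kept under that scaling, so most were lost across the genome too.

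Tags were fewer at these promoters than at coding promoters with a parental-higher region in general, a description with no test. The median was 25 parental tags (range 16 to 138), against 50 over 4643 protein-coding genes, and 10 of the 15 genes lay below 50. Per length, the medians were 46.0 parental and 16.1 scaled EIR tags per kb, against 66.0 and 25.8. The region had the minimum width of 500 bp at 9 of 15 genes, against 29.0% of the coding genes. It covered a TSS at 9 of 15, against 73.6%. The median fold was 2.73, against 2.52 for the coding genes with a parental-higher region. Regions with fewer tags pass a Poisson cutoff only at larger folds, so these medians, at 25 and 50 tags, are not like for like. The 15 folds ran from 2.01 to 4.77, and the 15 intervals all lay above 1, which the selection of the regions for a difference favors. Every interval also held 2.47, the median fold of all coding genes with a region of either direction, so no gene could be placed above or below that level. All intervals overlapped from 1.9 to 2.86, which leaves the order of the folds unresolved.

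**Figure D1:**
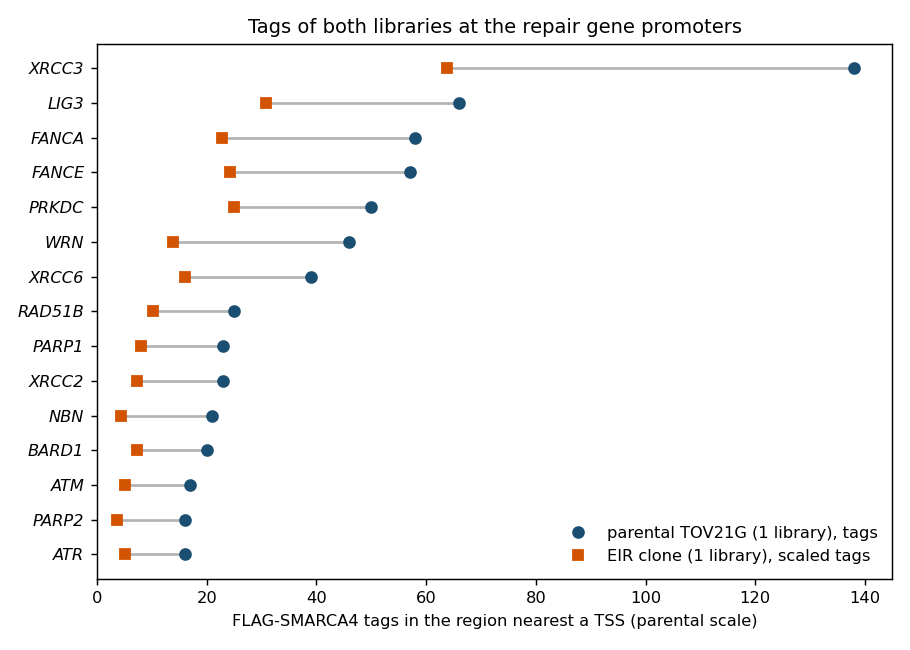
FLAG-SMARCA4 tags in the region nearest a TSS at the 15 genes that had one, in parental TOV21G (circles, tags) and the EIR clone (squares, tags scaled to the parental total), 1 library each. Every circle lies to the right of its square, from 16 against 5.1 tags at *ATR* to 138 against 63.8 at *XRCC3*.

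Among the 11 genes of damage signalling and the checkpoint, the apical kinases *ATM* and *ATR* had a region. *ATM*, the kinase that responds to double-strand breaks, had 17 parental and 7 EIR tags (5.1 scaled) at chr11:108094656-108095156. The fold was 3.31 (95% interval 1.31 to 9.45). The region lay in intron 1, 862 to 1362 bp after the canonical TSS. It covered the TSS of a transcript of the gene whose coding sequence is not defined in the annotation. *ATR*, which responds to single-stranded DNA at stalled forks, had 16 parental and 7 EIR tags (5.1 scaled) at chr3:142298012-142298512. Its fold was 3.12 (1.21 to 8.96), and the region ended 437 bp upstream of the TSS. Both were among the weakest of the 15. *CHEK1*, *CHEK2*, *TOPBP1*, *MDM2*, *MDM4*, *TP53BP1*, *MDC1*, *RNF8* and *RNF168*, which encode checkpoint kinases, adaptors and ubiquitin ligases acting with them, had no region within 1 kb.

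Of the MRN complex, which holds broken ends and activates ATM, *NBN* had 3 parental-higher regions and *MRE11* and *RAD50* had none. The region of *NBN* with the largest fold of all 15 genes was at chr8:90993655-90994155, with 21 parental and 6 EIR tags (4.4 scaled), a fold of 4.77 (1.86 to 14.5). It spanned part of intron 2 and exon 3, 2740 to 3240 bp into the gene, over the TSS of a shorter transcript. A wider region of 642 bp at chr8:90995833-90996475, in intron 1, had 33 and 15 tags (11.0 scaled), a fold of 3.0 (1.59 to 5.95). Between them, 20 against 10 tags (7.3 scaled) were counted at chr8:90994679-90995179, a fold of 2.73 (1.22 to 6.53). All 3 lay downstream of the canonical TSS of *NBN*, within its first 3240 bp, and all 3 were lower in the EIR library.

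Homologous recombination, the role with the most genes here, also had the most with a region, 5 of 14. The share over all protein-coding genes was 24.6%, and the difference was not tested. *XRCC3*, a paralog of the strand-exchange recombinase, had the most tags and the widest region of all. At chr14:104181347-104183237, 1890 bp over its TSS, 138 parental and 87 EIR tags (63.8 scaled) gave a fold of 2.16 (1.64 to 2.86). With these depths the interval was the narrowest of the 15. The region also covered a TSS of *ZFYVE21*, transcribed the other way. *WRN*, a RecQ helicase, had 46 parental and 19 EIR tags (13.9 scaled) at chr8:30889855-30890941. Its fold was 3.3 (1.9 to 5.97), with the highest lower bound of the set, and the 1086-bp region lay from -1471 to -385 bp of the canonical TSS, over a TSS of *PURG*. *XRCC2*, another recombinase paralog, had 23 and 10 tags (7.3 scaled) at chr7:152373171-152373671, from -445 to 55 bp of its TSS, a fold of 3.14 (1.44 to 7.39). *BARD1*, the partner of BRCA1 in its ubiquitin ligase, had 20 and 10 tags (7.3 scaled) in intron 1 at chr2:215673155-215673655. Its fold was 2.73 (1.22 to 6.53). *RAD51B*, a further paralog, is described on its own. *BRCA1*, *BRCA2*, *PALB2*, *BRIP1*, *RAD51C*, *RAD51D*, *RAD52*, *RAD54L* and *BLM* had none within 1 kb.

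In the Fanconi anemia pathway *FANCA* and *FANCE*, both subunits of the core complex that ubiquitinates FANCD2 and FANCI, had a region and the other 8 genes had none. *FANCA* had 58 parental and 31 EIR tags (22.7 scaled) at chr16:89882114-89882900. The fold was 2.55 (1.62 to 4.08), over intron 1, exon 2 and intron 2. *FANCE* had 57 and 33 tags (24.2 scaled) at chr6:35419994-35420902, over the TSS, exon 1 and intron 1, a fold of 2.36 (1.51 to 3.74). The tags of the 2 genes were nearly equal, and each interval held the fold of the other. *FANCB*, *FANCC*, *FANCD2*, *FANCF*, *FANCG*, *FANCI*, *FANCL* and *FANCM* were without a region within 1 kb.

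In end joining, *XRCC6*, which encodes a subunit of the Ku heterodimer that caps broken ends, had 39 parental and 22 EIR tags (16.1 scaled). At chr22:42016281-42016781, from -1018 to -518 bp of the canonical TSS, the fold was 2.42 (1.4 to 4.28). *PRKDC*, the catalytic subunit of the DNA-dependent protein kinase recruited by Ku, had 50 and 34 tags (24.9 scaled) at chr8:48873245-48874009. The fold of 2.01 (1.27 to 3.2) was the smallest of the 15. That region covered a TSS of *MCM4*, a replicative helicase subunit transcribed the other way, and lay upstream of *PRKDC*. *XRCC4*, *XRCC5* and *LIG4* had no region.

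Among the genes of single-strand break and base excision repair, 3 of 5 had a region, and all 3 regions covered the canonical TSS. The share over all protein-coding genes was 24.6%, and with only 5 genes the difference was not tested. *LIG3*, a ligase that seals nicks, had 66 parental and 42 EIR tags (30.8 scaled) at chr17:33307399-33308345, a fold of 2.14 (1.43 to 3.24), second only to *XRCC3* in tags. The poly(ADP-ribose) polymerases that sense strand breaks, *PARP1* and *PARP2*, had weaker regions of 500 bp. *PARP1* had 23 and 11 tags (8.1 scaled) at chr1:226595370-226595870, a fold of 2.85 (1.34 to 6.48). *PARP2* had 16 and 5 tags (3.7 scaled) at chr14:20811668-20812168, a fold of 4.37 (1.53 to 15.2), which was the second largest and had the widest interval. The *XRCC1* scaffold and the ligase *LIG1* had none. None of the mismatch repair genes *MSH3*, *MSH6* and *PMS2*, and none of the nucleotide excision repair genes *ERCC1*, *ERCC2*, *ERCC4*, *XPA* and *XPC*, had a region within 1 kb of a TSS.

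**Figure D2:**
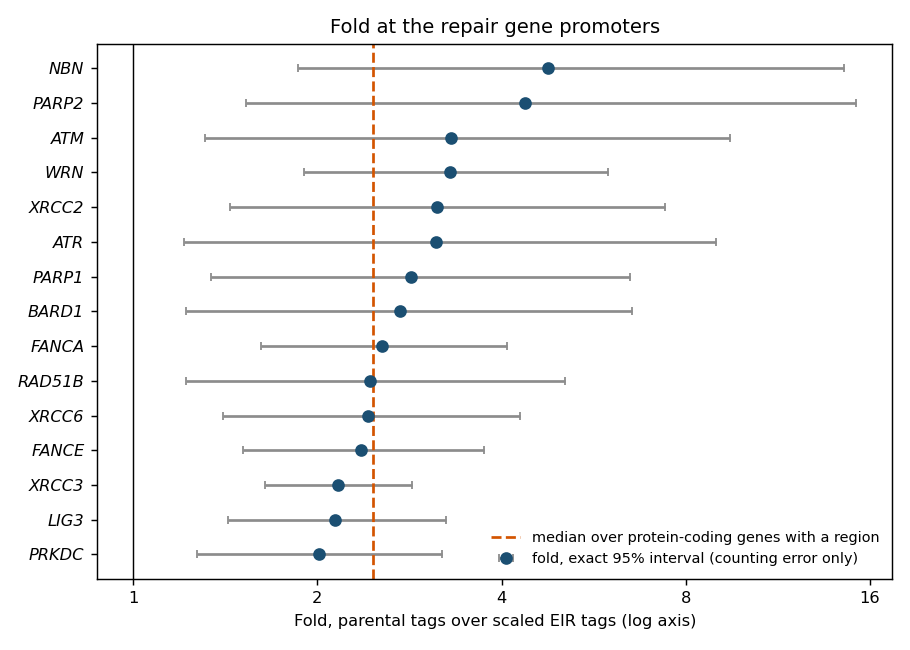
Fold of parental over scaled EIR tags (log axis) in the region nearest a TSS at the 15 genes, with exact 95% intervals for counting error. All 15 intervals lie above 1 and hold the dashed line at 2.47, the median over protein-coding genes with a region, and the largest folds, *NBN* and *PARP2*, have wide intervals.

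The regions did not sit in 1 place relative to the genes. Of the 15 regions nearest a TSS, 6 covered the canonical TSS, 4 lay wholly upstream of it (*ATR*, *WRN*, *XRCC6* and *PRKDC*) and 5 wholly downstream (*ATM*, *NBN*, *BARD1*, *RAD51B* and *FANCA*). At 6 of the 15 genes, against 42.0% of coding genes with a region, the region was also within 1 kb of a TSS of another gene, and at all 6 that gene lay on the opposite strand. Besides *XRCC3*, *WRN* and *PRKDC*, the pairs were *LIG3* with *CCT6B* and *XRCC6* with *DESI1*, and *PARP2* with a long noncoding RNA. Which gene of a pair a region serves cannot be read from binding. Parental tags at these 6 regions ranged from 16 to 138 with a median of 48, and at the other 9 from 16 to 58 with a median of 23. The folds ranged from 2.01 to 4.37 and from 2.36 to 4.77, and overlapped.

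**Figure D3:**
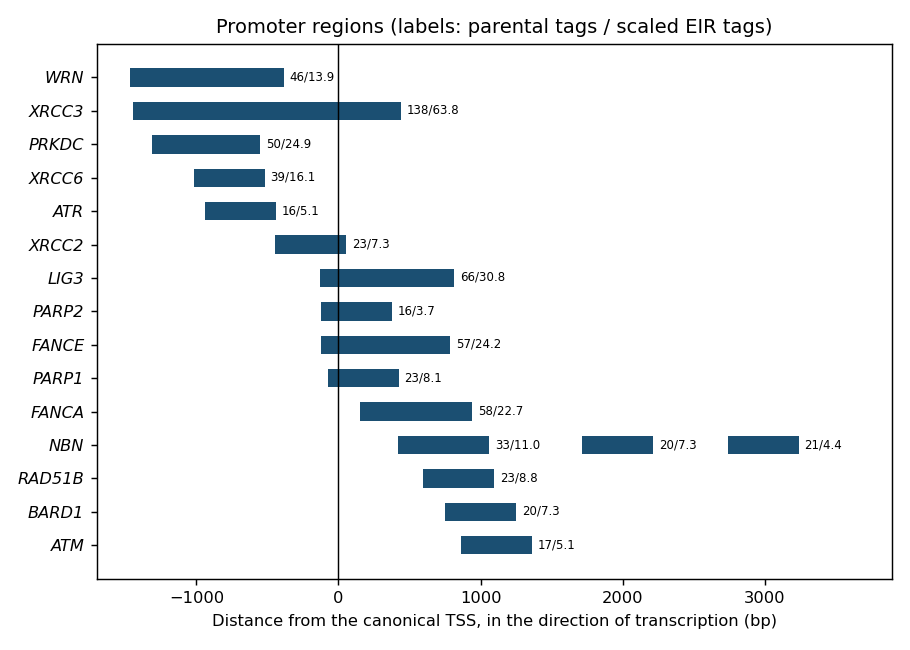
Parental-higher regions drawn to scale by their distance in bp from the canonical TSS of the gene (line at 0), in the direction of transcription, with parental tags and scaled EIR tags beside each. The regions of 6 genes cross the line, and *NBN* has 3 regions downstream of it; the internal *RAD51B* region nearest a TSS lies off the axis and is not drawn.

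In the gene body beyond 1 kb of a TSS, 2 of the 56 genes (3.57%) had a region, *RAD51B* and *ERCC1*, against 11.6% of protein-coding genes. The median gene length was 59.7 kb, against 27.2 kb for protein-coding genes, and the part of gene length in this share was not tested. *ERCC1*, whose product incises the damaged strand together with ERCC4, had 22 parental and 9 EIR tags (6.6 scaled) at chr19:45930920-45931420, a fold of 3.33 (1.48 to 8.23). This region lay 1048 bp from the nearest TSS and was the closest outside the 1 kb limit. It was upstream of the canonical TSS, from -4245 to -3745 bp, and is in the gene body only by longer annotated transcripts. The most distant region inside the limit was the third of *NBN*, at 796 bp, followed by that of *BARD1*, at 666 bp.

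*RAD51B* differed from the other genes in the number of its regions. It spans 910 kb of chromosome 14 and held 21 regions, 18 parental-higher and 3 EIR-higher, or 2.31 per 100 kb. The rate over the genome was 0.417 per 100 kb, at which a gene of this length would hold 3.79. Of 324 protein-coding genes of at least 500 kb, 173 held none, 6 were denser than *RAD51B* and 5 held more regions. The folds of the regions near a TSS were among its smaller ones. In intron 1, 598 to 1098 bp after the canonical TSS, 23 parental and 12 EIR tags (8.8 scaled) were counted at chr14:68287094-68287594, a fold of 2.61 (1.25 to 5.77). In intron 7, 277 bp from an internal TSS, 25 and 14 tags (10.3 scaled) were counted at chr14:68467273-68467773, a fold of 2.44 (1.22 to 5.07). The latter is the value used for *RAD51B* in the comparisons above.

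The 16 parental-higher regions in the *RAD51B* body had 16 to 37 parental tags and 4.4 to 13.2 scaled EIR tags, with folds of 2.27 to 3.87 and a median of 3.15. The median over all parental-higher regions was 2.86, with a median of 28 tags against 21 in these body regions. Here too, regions with fewer tags pass only at larger folds. Over the whole gene 10 parental-higher regions lay in intron 7, which is 405 kb long, 3 in intron 8 and 4 beyond the end of the canonical transcript, within longer transcripts. The region with the most tags, at chr14:68700203-68700827, had 37 parental and 15 EIR tags (11.0 scaled), a fold of 3.37 (1.8 to 6.6). The largest fold was 3.87 (1.45 to 12.0), from 17 and 6 tags (4.4 scaled), and the smallest 2.27, from 30 and 18 tags (13.2 scaled). The 3 EIR-higher regions were all in intron 7 and 500 bp wide, and lay between parental-higher ones. At chr14:68753129-68753629, 6 parental and 28 EIR tags (20.5 scaled) made the EIR level 3.42 times the parental. At chr14:68404029-68404529, 5 and 26 tags (19.1 scaled) made it 3.81 times, and at chr14:68735932-68736432, 6 and 26 tags (19.1 scaled) made it 3.18 times. These 3 rest on 5 or 6 parental tags each in 1 library, and were listed because they differed, so their direction is a description.

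The central 300 bases of the strongest region in each direction, both in intron 7 of *RAD51B*, can be set beside the promoter stretches above. Those stretches came only from regions over a canonical TSS. Both *RAD51B* stretches are on the plus strand of GRCh37, which is the strand of the gene, and capitals mark a CCAAT box on either strand.
RAD51B parental-higher region, chr14:68700366-68700665, plus strand: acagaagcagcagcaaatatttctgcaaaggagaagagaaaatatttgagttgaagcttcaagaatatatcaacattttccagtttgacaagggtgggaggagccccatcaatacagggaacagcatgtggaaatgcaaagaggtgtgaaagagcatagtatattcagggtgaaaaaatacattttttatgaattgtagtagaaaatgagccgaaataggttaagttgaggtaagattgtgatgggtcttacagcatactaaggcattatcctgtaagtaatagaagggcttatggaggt
RAD51B EIR-higher region, chr14:68753230-68753529, plus strand: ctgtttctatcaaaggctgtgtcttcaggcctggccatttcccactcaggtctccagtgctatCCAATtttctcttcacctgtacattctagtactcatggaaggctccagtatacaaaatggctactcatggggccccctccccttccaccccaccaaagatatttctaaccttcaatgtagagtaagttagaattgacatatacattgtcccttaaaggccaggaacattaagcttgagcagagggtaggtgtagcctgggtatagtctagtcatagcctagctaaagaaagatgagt

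Neither stretch holds a GC box. In the central 500 bp, a GC box was in 1 of the 16 parental-higher body regions of *RAD51B* (6.25%), against 10 of the 15 regions nearest a TSS (66.7%) and 41.9% of all parental-higher regions. Median GC content was 41.7% in the former and 64.8% in the latter, against 50.0% over all parental-higher regions. AP-1 letters were in 2 of the 16 (12.5%, against 14.1%) and in 2 of the 3 EIR-higher regions of the gene, against 15.0% of all EIR-higher regions. CCAAT boxes were in 9 of the 16 (56.2%, against 38.8%) and also in 2 of the 3, against 42.0%. The CHR letters were in 11 of the 16 (68.8%, against 27.8%) and in 1 of the 3, against 25.9%. None of these differences was tested. The body regions of *RAD51B* were thus AT-rich by median beside the regions nearest a TSS, but this was not particular to them. The regions nearest a TSS of *ATM*, *ATR*, *NBN*, *BARD1* and *RAD51B* had 31.6% to 39.2% GC. These were below the median of the body regions, and none of them held a GC box. Body regions and promoter regions were both mostly parental-higher, as were the regions of the whole series (10792 parental-higher and 2104 EIR-higher).

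**Figure D4:**
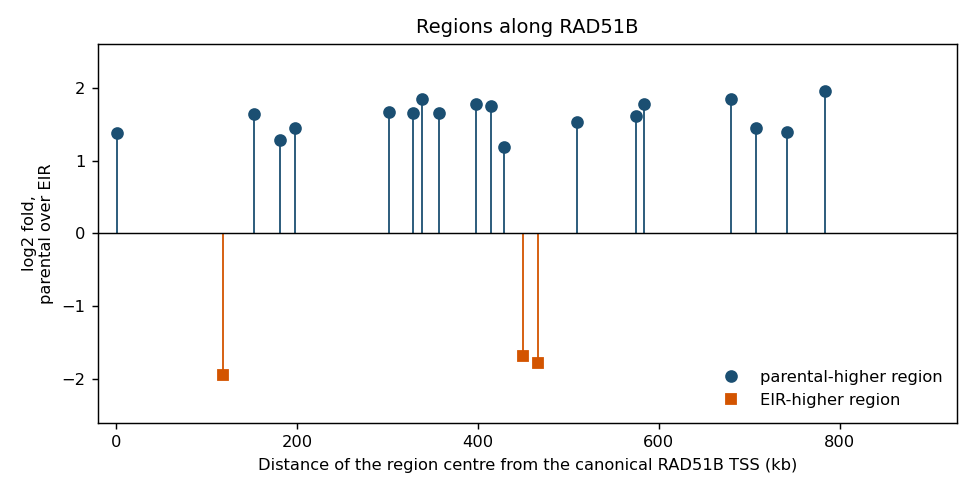
The 21 regions along *RAD51B*, by the distance of their centre from the canonical TSS in kb, with the log2 fold of parental over scaled EIR tags. The 18 parental-higher regions (circles, above 0) spread over the gene, and the 3 EIR-higher regions (squares, below 0) lie in intron 7.

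The other 41 genes had no region within 1 kb. Their nearest region lay 1.05 to 2260 kb from a TSS, with a median of 56.2 kb. It was closer than 5 kb for 2 genes, 5 to 20 kb away for 4, 20 to 100 kb away for 20 and farther for 15. For 35 genes it was parental-higher. *MDM2*, the ubiquitin ligase that restrains the checkpoint, had the nearest after *ERCC1*, at 4.94 kb with 18 parental and 5.1 scaled EIR tags. *XPA*, a damage-binding factor of nucleotide excision repair, had one at 6.24 kb with 56 and 25.7 tags. *MDC1*, an adaptor at marked chromatin, had one at 7.43 kb with 23 and 6.6 tags. *CHEK2* had one at 9.54 kb, at *TTC28*, with 34 and 16.1 tags.

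For 6 genes the nearest region was EIR-higher, and none of these lay closer than 19.8 kb. They were *MRE11*, *RAD51D*, *FANCG*, *FANCI*, *ERCC4* and *XPC*. The one nearest *RAD51D*, at 29.3 kb, had 63 parental and 107 scaled EIR tags, and those nearest the others had 4 to 7 parental tags. *BRCA1* and *BRCA2*, the central mediators of homologous recombination, had their nearest region at 26.3 and 30.4 kb. These belonged to other genes, *VAT1* with 28 and 11.0 tags and *N4BP2L1* with 82 and 38.1 tags. Strong regions of other genes also lay near *TOPBP1* (33.9 kb, *CDV3*, 109 and 24.9 tags) and near *PMS2* (95.3 kb, *USP42*, 107 and 15.4 tags). *FANCF* was the most isolated, at 2260 kb.

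**Figure D5:**
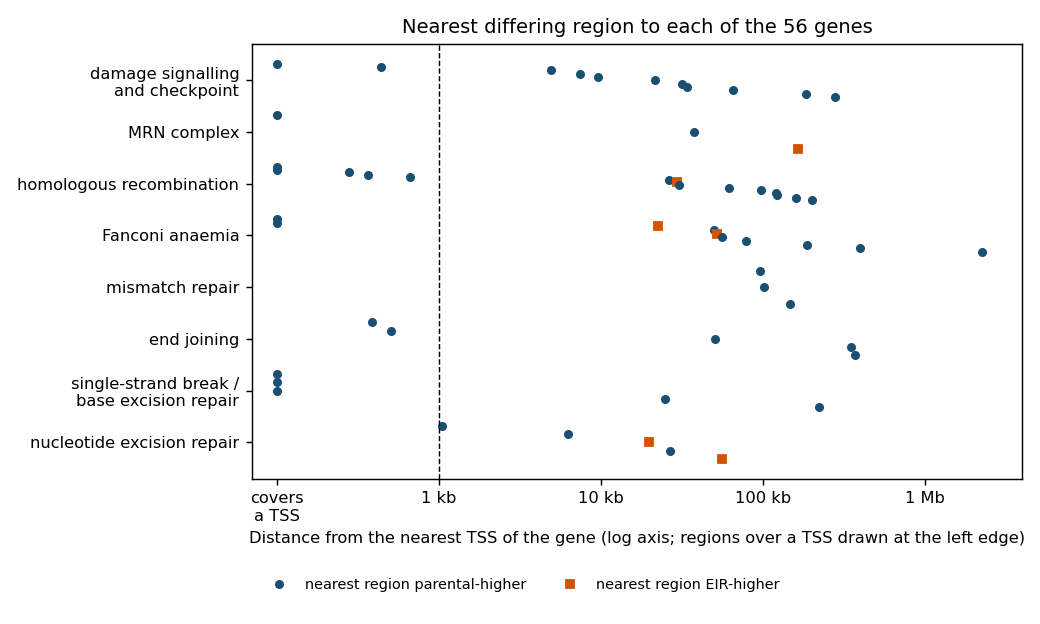
Distance from the nearest TSS of each of the 56 genes to its nearest differing region (log axis, regions over a TSS at the left edge), by role; circles are parental-higher and squares EIR-higher. The 15 genes left of the dashed 1 kb line are all circles, and the 6 squares lie at 19.8 kb or farther.

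A wider list of 81 other repair genes, also chosen for function, is given as counts. A region within 1 kb was found at 22 of the 81 (27.2%), parental-higher at 21 and EIR-higher at 1. These counts are near the background of protein-coding genes, 24.6% for either direction, 23.2% for parental-higher and 1.96% for EIR-higher regions. *USP7*, a deubiquitinase, had the most tags, 145 parental and 64 EIR (46.9 scaled), a fold of 3.09 (2.29 to 4.22). *RMI1*, a subunit of the complex that dissolves recombination intermediates, had the EIR-higher region, 655 bp from a TSS, with 8 parental and 32 EIR tags (23.5 scaled). The parental over EIR fold was 0.34 (0.136 to 0.756). The 21 parental-higher genes had a median fold of 2.73, the same as the 15 genes above, and a median of 33 parental tags.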

How the data were processed

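FLAG-SMARCA4 ChIP-seq was measured in 1 parental and 1 EIR library. The authors aligned reads to hg19 with bowtie 0.12.9 (per the labels), called regions with HOMER (version not given in the sources used here) in its histone style, testing each library against the other one, and retained those past an FDR of 5%. Parental tags are deposited as a raw count for each region, and the deposited signal of the EIR library is scaled to the parental total. The deposited fold is a ratio of these tags, with a Poisson p-value. EIR counts were recovered from the scaled signal in steps of 0.733 (99.4% of 173 distinct values within 0.05 of a whole multiple). HOMER's score and clonality columns were not used.

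TSSs and gene bodies were taken from GENCODE release 44 on hg19 coordinates, and the canonical transcript from its tag. Where several regions lay within 1 kb, the nearest was used, with ties going to the smallest p-value. The smallest p-value alone would have picked the other region of *RAD51B*, whose values are given too. The genes named with full values were those with the 3 largest and smallest folds, the most tags, or EIR-higher or both kinds of regions, and 1 to 3 per role. Members, lists and motifs were chosen with earlier results of these data known, and 1 gene first placed on the wider list of repair genes is not reported here. Intervals and the recovery of the scaling step were tested on simulated data, and joins against an exhaustive search on 1 chromosome. Analyses used Python 3.11.15, pandas 2.3.3, numpy 2.4.6 and scipy 1.17.1, and sequences samtools 1.23.1. Thresholds, windows, scaling and pseudocounts were varied.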

Additional observations from a re-analysis of the deposited data

How the results depend on the processing

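No gene had an EIR-higher region near a TSS under any of the alternatives run. These start from the deposited lists, so a wider window or another definition of the TSS can assign a listed region to further genes, but no alternative can bring in a region that was not listed. The number of genes with a region within 1 kb, all of them parental-higher, stayed between 13 and 17 with a fold of at least 2, a 500 bp or 5 kb window, the region's centre in place of its edge, the 5′ end of the gene or coding transcripts only, and EIR tags scaled 1.5 times lower. It fell to 2 for either list and for the parental-higher list with a fold of at least 4, to 7 with a HOMER p-value of at most 1e-06, and to 3 with EIR tags scaled 1.5 times higher. The median fold was 4.57 over the 2 genes left with a fold of at least 4, a cutoff that keeps it at 4 or above. It was 2.2 over the 3 genes left with EIR tags scaled 1.5 times higher, and 4.09 over all 15 with EIR tags scaled lower. These 3 medians are over different genes and are not like for like. Over all 15 genes the median fold was 2.73 with tags summed over regions and 2.6 with 1 tag added to each library. With the region of smallest p-value, an alternative added after seeing the data, it was 2.73. The 2 genes with a gene body region became 0 with a fold of at least 4, 1 with a p-value of at most 1e-06, 4 with a 500 bp window, 1 with a 5 kb window and 1 with EIR tags scaled higher. These follow from fewer regions passing or from where the window ends. Of the single folds, that of *XRCC3* left its interval under scaling, to 1.44 and 3.25, and the other 14 stayed inside theirs. No fold changed direction, but with a smallest fold of 2.01 neither the scaling nor the added tag could have changed one. For the same reason a fold of at least 2 could drop no gene, and scaling EIR tags lower could only raise the folds. No paired analysis was possible because each condition had 1 library, and leaving out a replicate was not possible for the same reason. At 16 to 25 tags, the depth at most of these regions limits a fold to an interval several times its lower bound.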
